A study of Mus musculus with 140 samples.

Results

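Muscle taken 8 h after a bout of treadmill running in the rest phase was compared with muscle of sham mice taken at the same clock time, over all 11461 genes in the deposited files. The comparison rests on the 6 libraries titled as rest phase, exercise and ZT12 and the 5 titled as rest phase, sedentary and ZT12, which are 11 of the 140 samples in the labels and include no sham replicate 3. Both groups were male C57B6/J mice of 10 to 11 weeks with no genetic change in the labels, kept in 12 h of light and 12 h of darkness with free access to food, and lights came on at ZT0. The exercised mice ran for 1 h from ZT3, and the sham mice stood on a treadmill that did not move for the same hour. Both were returned to their home cages to eat and drink freely until ZT12, the hour of lights off, when the gastrocnemius, a calf muscle of mainly fast fibres, was removed. In the series as a whole, muscle was taken every 4 h from 0 to 20 h of recovery, after exercise from ZT3 (rest-phase arm) or from ZT15 (active-phase arm), each with its own sham mice. The sham mice of the ZT15 arm at 20 h of recovery were also taken at ZT12 and give a second set of controls for the clock time, 6 libraries from mice handled at another hour.

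Recovery from a bout of running is known to pass through stages in muscle. Immediate early genes, which need no new protein to be transcribed, are raised during and directly after contraction and decay within hours. Genes of fuel use follow, among them those that turn the fibre from glucose to fatty acids. Stress hormones of the glucocorticoid class, which rise with exertion, act in muscle through a nuclear receptor and induce their own set of genes. Metallothioneins, small cysteine-rich proteins that bind zinc and copper, are induced both by free zinc, through the transcription factor MTF1, and by glucocorticoids.

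Of the 11461 genes, 1 passed the test, 0.00873% of those tested, with limma and a Benjamini-Hochberg adjusted p under 0.05. It was Mt1, which encodes metallothionein 1 and was higher in the exercised mice. No gene passed as lower. An unadjusted p under 0.05 was found for 244 genes, 2.13% of those tested, of which 197 were higher (1.72%) and 47 lower (0.41%). The 2 groups did not overlap for 47 genes (0.41%), with the 6 exercised mice above the 5 sham mice for 36 (0.314%) and below them for 11 (0.096%). The median log2 change of all genes was 0.01, 51.8% of genes were above 0, and the median size of a change was 0.13 beside a median standard error (SE) of 0.25. The 95% interval of the change lay between -1 and 1 for 10229 genes, 89.3% of those tested, so for most genes a doubling or a halving lay outside the interval. A gene with more RNA in muscle may reflect more cells that express it or more RNA per cell, and these cannot be told apart in bulk tissue.

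**Figure D1:**
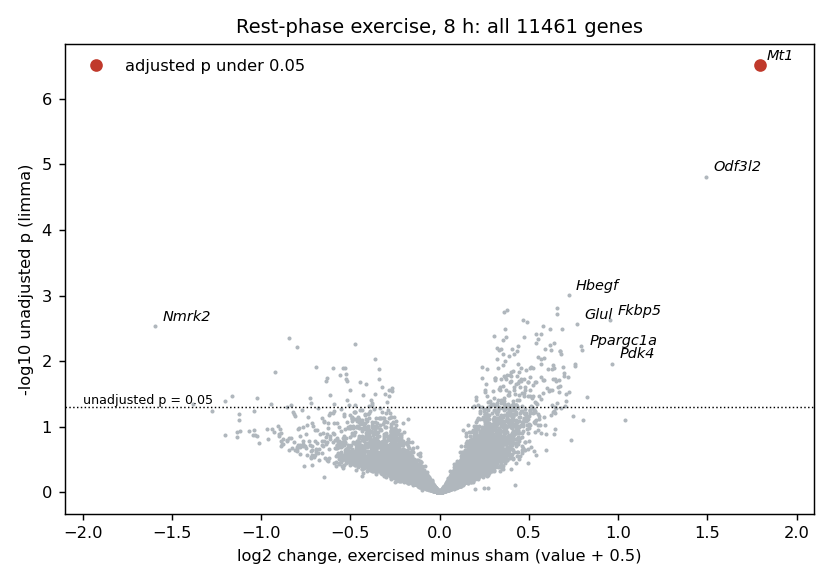
Log2 change of value + 0.5 between exercised and sham mice at 8 h (horizontal) against -log10 of limma's unadjusted p (vertical) for 11461 genes, 1 point each, with the dotted line at an unadjusted p of 0.05. Mt1, in red, was the 1 gene past the adjusted threshold, Odf3l2 came next, and 197 points lie above the line on the right against 47 on the left.

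Mt1 (ENSMUSG00000031765.8) lies on the plus strand of chromosome 8 at 94179082 to 94180327 in GRCm38. Its promoter is shown because metal response elements, the sites MTF1 binds, are the known route by which zinc induces the gene. The 300 bases below come from RefSeq with the build GRCm38.p6, chr8:94178839-94179138, plus strand, 250 bases before to 50 after the annotated start. Capitals mark each core of a metal response element, searched as TGCACNC and TGCGCNC on both strands.
Mt1 promoter: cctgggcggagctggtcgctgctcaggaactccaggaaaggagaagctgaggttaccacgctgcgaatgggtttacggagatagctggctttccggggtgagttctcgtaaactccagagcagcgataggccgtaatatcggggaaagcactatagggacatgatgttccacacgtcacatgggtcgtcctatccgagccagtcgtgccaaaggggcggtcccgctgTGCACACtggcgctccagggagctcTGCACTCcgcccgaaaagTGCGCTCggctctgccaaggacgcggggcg
The window holds 3 cores, TGCACAC beginning 23 bases before the annotated start and TGCACTC and TGCGCTC beginning 2 and 20 bases after it. At least 1 core is found in 8444 of 32851 RefSeq promoters of this length (25.7%), and 3 or more in 647 (1.97%). Cores outside this window were not searched, so 3 is not a count for the whole promoter. The annotated start was not compared with a measured start of transcription, so the place of the cores beside the true start is not known here. A match is a run of letters and was not tested for binding.

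The 6 exercised mice had Mt1 values of 39.4, 33.6, 34.1, 22.7, 21.6 and 19.9 in replicates 1 to 6, in the deposited unit of reads per M (mega), with the library size scaled by the authors. The sham mice had 12.5, 7.57, 10.01, 5.77 and 4.603 in replicates 1, 2, 4, 5 and 6. Every exercised value was above every sham value, and within both groups replicates 5 and 6 were the lowest. The means were 28.6 ± 8.14 (SD, n = 6) and 8.08 ± 3.18 (SD, n = 5). The log2 change was 1.79 ± 0.33 (SE, 95% interval 1.14 to 2.45), with an adjusted p of 0.00353 by limma. The sham mice of the other arm at ZT12 averaged 6.79 ± 2.28 (SD, n = 6), with a highest value of 9.30, so all 6 exercised mice also lay above these. Within pairs of replicate numbers the log2 difference was 1.85 in replicates 1 and 2, 1.43 in replicates 3 and 4, where there was 1 sham mouse, and 1.91 in replicates 5 and 6. Leaving out 1 library at a time gave changes of 1.63 to 1.96, and the adjusted p exceeded 0.05 without sham replicate 5 (0.0501, change 1.70) and without sham replicate 6 (0.0895, change 1.63).

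**Figure D2:**
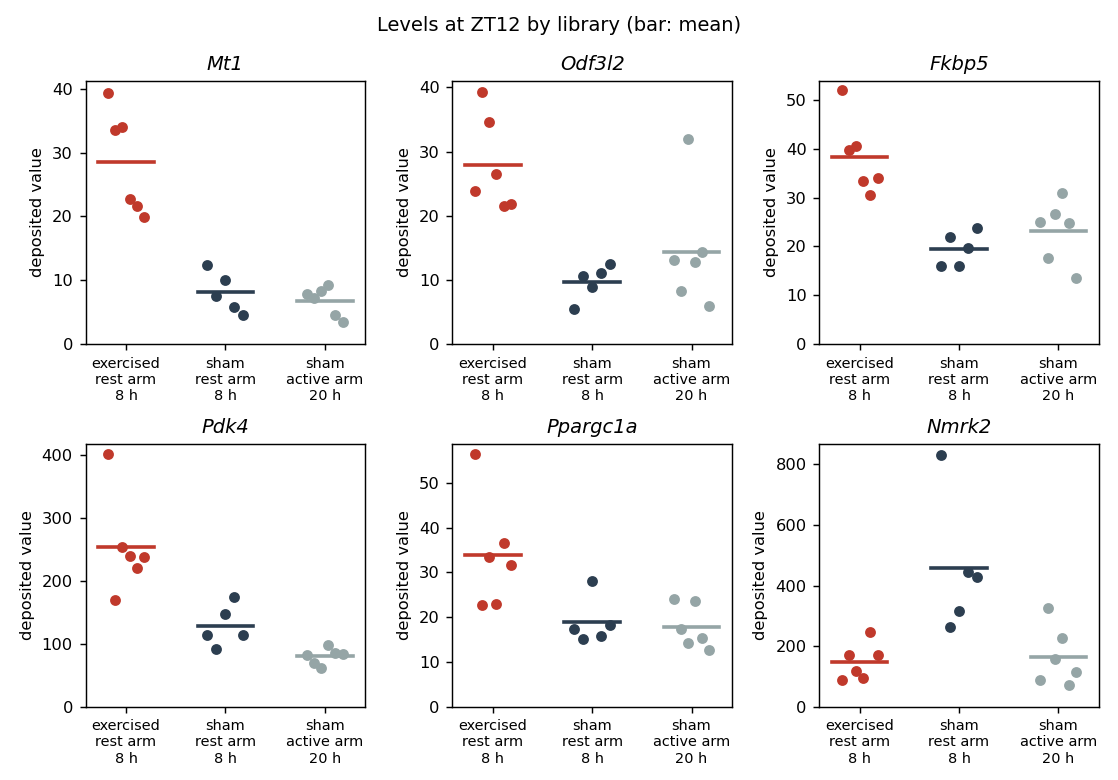
Deposited value per library (points) and group mean (bar) at ZT12 for 6 genes in exercised mice of the rest arm at 8 h (n = 6), their sham mice (n = 5) and sham mice of the active arm at 20 h (n = 6). The exercised points lie above both sham groups for Mt1, where they start at 19.9, while for Nmrk2 the exercised points lie below the rest-arm sham points and among those of the other arm.

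Mt1 was also higher after exercise at the other hours of the rest-phase arm, in mice that share no library with these. Its mean was 46.6 ± 10.5 (SD, n = 4) against 8.30 ± 1.903 (n = 5) at 0 h, 32.6 ± 14.6 against 11.0 ± 7.67 (n = 6 each) at 4 h and 15.8 ± 4.54 against 5.57 ± 0.68 (n = 6 each) at 12 h. The log2 changes were 2.42 ± 0.37, 1.66 ± 0.31 and 1.38 ± 0.31 (SE), with limma adjusted p of 3.35e-06, 0.00751 and 0.0493. At 16 and 20 h they were 0.91 ± 0.31 and 0.94 ± 0.31 and did not pass (adjusted p 0.999 and 0.920). The change at 8 h minus that at 4 h was 0.14 ± 0.46 (adjusted p 0.962), and the change at 12 h minus that at 8 h was -0.41 ± 0.46 (adjusted p 0.773). After exercise in the active phase the Mt1 change at 8 h was 1.22 ± 0.33, from means of 23.7 ± 9.11 (SD, n = 5) and 9.61 ± 2.73 (n = 6), with an adjusted p of 0.202. The active change minus the rest change at 8 h was -0.58 ± 0.47 (adjusted p 0.736), so no difference between the phases was detected for Mt1.

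**Figure D3:**
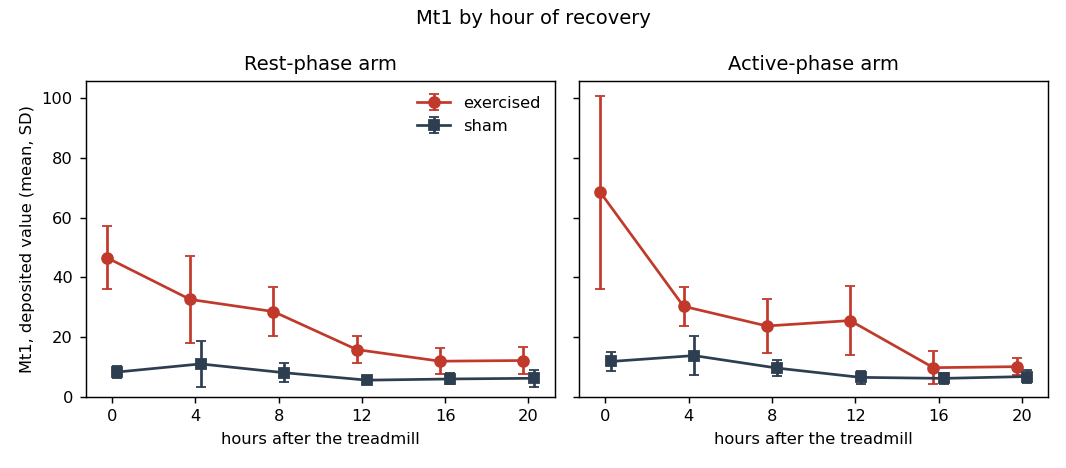
Mean deposited value of Mt1 (points) with its SD (bars) in exercised and sham mice by hours after the treadmill, in the rest-phase arm (left) and the active-phase arm (right), with 4 to 6 libraries a point. At 8 h in the rest-phase arm the exercised mean was 28.6 and the sham mean 8.08.

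No other gene of zinc handling passed. Of 19 genes on the list of metallothioneins and zinc transport, 16 were measured, 1 passed (Mt1), and the median change was 0.08, beside 0.01 over all genes. Slc39a13 and Slc39a14, importers of zinc into the cytosol, had changes of 0.41 ± 0.23 and 0.38 ± 0.26 (SE), or 0.27 and 0.22 with the sham mice of both arms. Slc30a1, which exports zinc and is another known MTF1 target, had a change of 0.20 ± 0.26, with means of 5.22 and 4.49. That of Slc30a1 was -0.20 when the sham mice of both arms at ZT12 served as controls. Metallothionein 2 was not analysed here.

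Odf3l2, named for its likeness to a protein of the outer dense fibres of sperm tails, had the next smallest p. The gene (ENSMUSG00000035963.8) lies on the minus strand of chromosome 10 at 79639526 to 79645738. The exercised mice had 23.9, 39.3, 34.5, 26.4, 21.5 and 21.9, and the sham mice 5.39, 10.7, 8.84, 11.0 and 12.5, in the same order of replicates as above. The groups did not overlap. The change was 1.49 ± 0.33 (SE) with a limma adjusted p of 0.0879, which did not pass. It passed in 3 of the 14 repeats with other settings, which were the fit of the 11 libraries alone, array weights and DESeq2. The second set of controls at ZT12 had 5.87 to 31.9 with a mean of 14.3 ± 9.18 (SD, n = 6), and 2 of the 6 exercised mice lay above all of these.

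At the neighbouring hours Odf3l2 had changes of 1.28 ± 0.37 at 0 h, 1.06 ± 0.32 at 4 h and -0.55 ± 0.32 at 12 h. At 12 h its means were 13.2 ± 4.596 in exercised and 18.8 ± 3.36 in sham mice (SD, n = 6 each), so the sham level was above the 9.69 ± 2.73 of 8 h. The change at 12 h minus that at 8 h was -2.05 ± 0.46 (adjusted p 0.202), and the active minus rest difference at 8 h was -1.17 ± 0.47 (adjusted p 0.736).

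Targets of the glucocorticoid receptor were the list with the most members at an unadjusted p under 0.05. Of 27 genes 26 were measured, 24 had a change above 0 (51.8% of all genes) and the median change was 0.18 (0.01 over all genes). Mt1, which is on this list too, was the 1 member that passed, and 7 were at an unadjusted p under 0.05 and higher, beside 1.72% of all genes. Pdk4 was 1 of the 7 and is also on the list of fatty acid oxidation and the fasting fuel switch, so these lists are not separate. All 6 exercised mice lay above all 5 sham mice for 3 members, Mt1, Fkbp5 and Glul, beside 0.314% of all genes. The summed value of the list ran from 1645 to 2246 in exercised mice (median 1935) and from 1418 to 1642 in sham mice (median 1490). These sums did not overlap, and abundant members weigh most in them. How often sums of other genes separate was not tested.

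Fkbp5, a co-chaperone that binds the glucocorticoid receptor and lowers its affinity for hormone, had 51.9, 39.8, 40.5, 33.5, 30.5 and 34.1 in exercised and 16.0, 21.9, 15.9, 19.7 and 23.8 in sham mice. The groups were apart, with replicate 1 the highest exercised mouse. Its change was 0.96 ± 0.31 (SE), and its limma adjusted p was 1.00, or 0.0282 in the fit of the 11 libraries alone. In the second set of sham mice at ZT12 Fkbp5 ran from 13.5 to 30.9, and 5 of 6 exercised mice lay above this range. Its change was 1.19 ± 0.34 at 0 h, 0.73 ± 0.29 at 4 h and 0.21 ± 0.29 at 12 h.

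Glul, glutamine synthetase, had 288.0, 269.5, 271.3, 214.7, 185.8 and 174.5 in exercised mice against 116.04, 154.7, 125.5, 114.57 and 170.4 in sham mice. The groups did not overlap, though exercised replicate 6 and sham replicate 6 lay close. The change was 0.77 ± 0.25 at 8 h and -0.24 ± 0.24 at 12 h. In the second set of sham mice Glul reached 250.5, which 3 of 6 exercised mice exceeded. Klf15, a transcription factor of amino acid and lipid use, had a change of 0.57 ± 0.22 and was named after its value was seen. Cdkn1a, which encodes the cell cycle inhibitor p21, had 0.71 ± 0.33, and Nfkbia, an inhibitor of NF-kappaB, had 0.38 ± 0.19. Trim63, the muscle ubiquitin ligase MuRF1, had 0.39 ± 0.20. Per1 and Ddit4, 2 further members, had 0.11 ± 0.26 and 0.50 ± 0.40, and Ddit4 had 0.0545 without exercised replicate 2. Without 1 library, Cdkn1a had 0.47 (sham replicate 5) and Nfkbia 0.235 (exercised replicate 2), and with the sham mice of both arms Cdkn1a had 0.39.

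In the list of fatty acid oxidation and the fasting fuel switch, 29 of 31 genes were measured and none passed. Of these 27 were above 0, beside 51.8% of all genes, and the median was 0.17, beside 0.01. An unadjusted p under 0.05 was found for 3, all higher, beside 1.72% of all genes. Pdk4, the kinase that shuts pyruvate out of mitochondrial oxidation, had 400.8, 169.0, 253.9, 239.7, 220.1 and 237.7 in exercised and 113.7, 91.1, 146.9, 175.0 and 114.4 in sham mice. The groups overlapped at exercised replicate 2 and sham replicate 5. Its change was 0.97 ± 0.37 (SE, limma adjusted p 1.00), and it was 0.83 without exercised replicate 1. With the sham mice of both arms as controls the change of Pdk4 was 1.33 (adjusted p 0.108), since the sham mice of the other arm had 61.8 to 98.6. The change was 0.36 ± 0.36 at 4 h and 0.08 ± 0.36 at 12 h in the same arm, and 1.34 ± 0.37 (adjusted p 0.202) at 8 h in the active arm.

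Plin5, a coat protein of lipid droplets at mitochondria, had 29.5, 21.3, 22.3, 19.6, 8.63 and 9.97 in exercised and 9.24, 10.5, 11.9, 8.11 and 8.70 in sham mice. Exercised replicates 1 to 4 were above all sham mice and replicates 5 and 6 lay among them. The change was 0.79 ± 0.28. Acot2, a mitochondrial thioesterase that frees fatty acids from coenzyme A, had 0.52 ± 0.23, or 0.32 with the sham mice of both arms. Its groups did not overlap, an order found for 0.314% of all genes, and it was named after its value was seen.

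Ppargc1a encodes PGC-1alpha, the coactivator that drives mitochondrial biogenesis. It had 56.6, 22.8, 33.4, 23.01, 36.6 and 31.6 in exercised and 17.3, 15.04, 27.99, 15.7 and 18.2 in sham mice, which overlapped through sham replicate 4. Its change was 0.80 ± 0.29 (limma adjusted p 1.00) at 8 h, 0.97 ± 0.28 at 4 h and 0.30 ± 0.28 at 12 h. In the active arm it was 1.39 ± 0.29 at 8 h (adjusted p 0.0548), and the active minus rest difference was 0.59 ± 0.41 (adjusted p 0.736). Of the 20 genes of PGC-1 and mitochondrial biogenesis, 15 were above 0, beside 51.8% of all genes, and the median was 0.09. Ppargc1a alone was at an unadjusted p under 0.05, and higher, beside 1.72% of all genes. Among 28 nuclear-encoded subunits of oxidative phosphorylation none was at an unadjusted p under 0.05, 11 were above 0 and the median was -0.05.

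In branched-chain amino acid breakdown, 14 of 19 genes were above 0, beside 51.8% of all genes. An unadjusted p under 0.05 was found for 2, higher in exercised mice, beside 1.72% of all genes. These were Bcat2, the mitochondrial aminotransferase of the first step, with 0.48 ± 0.19, and Dbt, a subunit of the branched-chain ketoacid dehydrogenase, with 0.41 ± 0.15. Neither passed.

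Load-responsive genes of the sarcomere and Z-disc had 21 of 21 members measured, 19 above 0, none passed and a median of 0.18. Over all genes 51.8% were above 0 and the median was 0.01. Ankrd2, an ankyrin repeat protein raised by stretch, was the 1 member at an unadjusted p under 0.05 and higher, beside 1.72% of all genes. It had 99.3, 59.3, 63.5, 82.9, 43.6 and 44.9 in exercised and 45.4, 42.6, 59.3, 33.6 and 27.4 in sham mice. The groups overlapped, and the change was 0.63 ± 0.25. Hspb7, a small heat shock protein of muscle, was higher in all 6 exercised mice (37.2 to 88.1) than in all 5 sham mice (21.2 to 35.99). That order was found for 0.314% of all genes, and the change of Hspb7 was 0.75 ± 0.41. The sham mice of the other arm at ZT12 had 29.6 to 84.6, which 1 of 6 exercised mice exceeded, and with both sham sets the change of Hspb7 was 0.40. Xirp1, an actin-binding repair protein, had 0.74 ± 0.52 with exercised replicate 1 at 130.6 against 20.2 to 36.5 in the other 5, and 0.38 without that library. Csrp3, the muscle LIM protein, had 0.60 ± 0.39 at 8 h, and Ankrd1 0.60 ± 0.49.

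Csrp3 gives values on both sides of 8 h. Its changes at 4, 8 and 12 h were 1.24 ± 0.37, 0.60 ± 0.39 and 1.92 ± 0.37, of which the last passed (limma adjusted p 0.0117). Exercised means were 298.5 ± 109.1, 161.9 ± 34.8 and 354.2 ± 84.5 (SD, n = 6 each), and sham means 135.3 ± 78.9, 106.95 ± 25.9 and 102.3 ± 49.8. The change at 12 h minus that at 8 h was 1.32 ± 0.54 (unadjusted p 0.0157, adjusted p 0.724). Atf3, a stress-induced transcription factor, had changes of 2.02 ± 0.43, 0.81 ± 0.45 and 2.01 ± 0.43 at the same hours and passed at 4 and 12 h. Of the 6 sham libraries at 4 h, 1 correlated with its group at under 0.9, and without the libraries of that kind the 4 h change of Atf3 was 2.08 ± 0.46 and did not pass (adjusted p 0.0612), while that of Mt1 was 1.81 ± 0.33 (adjusted p 0.00295). The exercised mean of Atf3 was 30.02 ± 15.2, 7.09 ± 1.89 and 19.7 ± 9.67, and the 12 h minus 8 h difference of its change was 1.21 ± 0.63 (adjusted p 0.724). The lower change at 8 h was therefore not told from its neighbours for either gene by these tests.

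**Figure D4:**
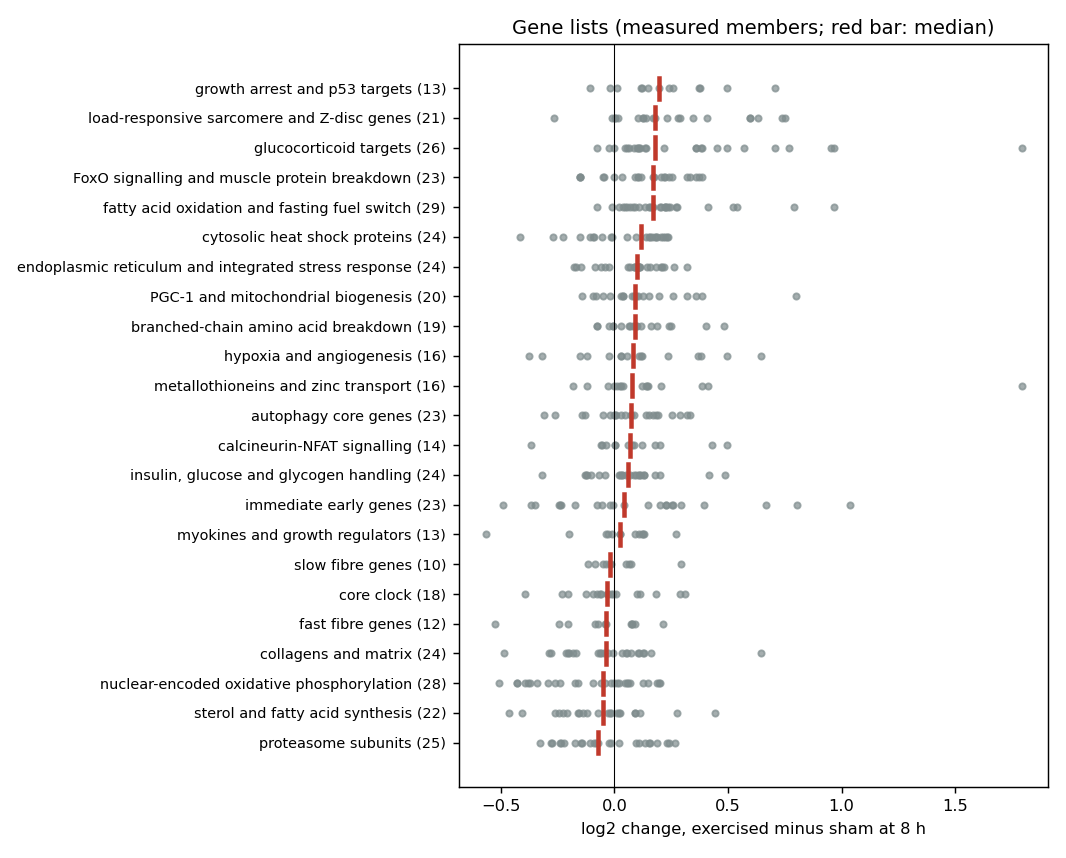
Log2 change at 8 h of each measured member (grey points) of 23 gene lists, with the median in red and the number of measured members in brackets. Medians run from -0.07 for proteasome subunits to 0.19 for growth arrest and p53 targets, and the farthest point to the right, 1.79, is Mt1 in both lists that hold it.

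Directly after exercise in the rest phase 40 genes had passed, 38 higher and 2 lower, and their values at 8 h come from other mice. Their median change was 1.33 at 0 h and 0.22 at 8 h. The 40 were chosen by their 0 h change, which favours a larger median at that hour. Of them, 30 had the same sign at 8 h, beside 51.8% of all genes above 0. An interval with its upper bound below 1 was found for 33. Over all genes, 89.3% had the whole interval between -1 and 1, so this count does not set the 40 apart. At 8 h Mt1 passed, and 6 of the 40, Mt1 included, were at an unadjusted p under 0.05, beside 2.13% of all genes. The other 5 were Maff with 0.67 ± 0.28, Impact with 0.32 ± 0.16, Arl4d with 0.51 ± 0.26, Nfkbia with 0.38 ± 0.19 and Tspyl2 with 0.47 ± 0.22. With the sham mice of both arms Maff had 0.41, Arl4d 0.24 and Tspyl2 0.22, and without sham replicate 6 Arl4d had 0.34. Maff, a small Maf transcription factor, had 1.72 to 3.30 in exercised and 0.90 to 1.47 in sham mice. These did not overlap, an order found for 0.314% of all genes. Nr4a1, an orphan nuclear receptor, had a change of -0.24 ± 0.30 at 8 h, or -0.58 with both sham sets. Btg2, an antiproliferative early gene, had 0.26 ± 0.30, or -0.0327 with both sham sets. Ddit4, an inhibitor of mTORC1 that had the largest change at 0 h, had 90.8 and 33.5 in exercised replicates 2 and 4 and 9.73 to 13.3 in the other 4, against 9.88 to 18.9 in sham mice.

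**Figure D5:**
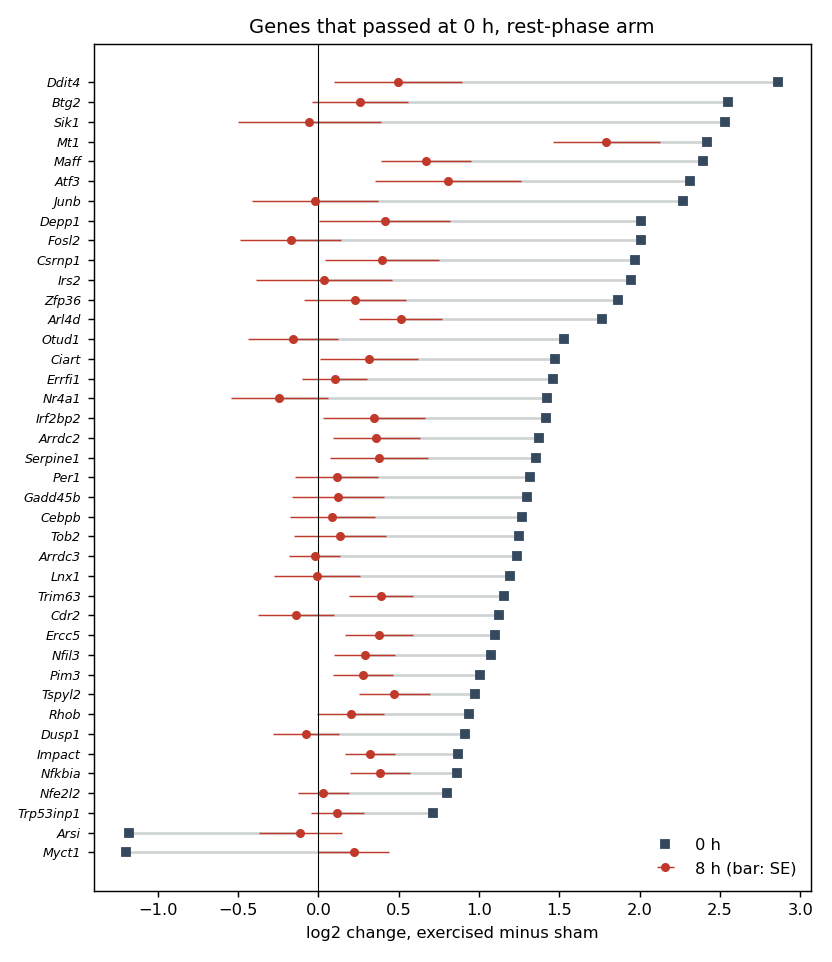
Log2 change at 0 h (squares) and at 8 h (circles, bar SE) in the rest-phase arm for the 40 genes that passed at 0 h, in order of the change at 0 h. The circles run from -0.24 to 1.79, and the highest is Mt1.

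The immediate early genes as a list had 23 of 27 members measured, 12 above 0 and 11 below, with a median of 0.04. Maff was the 1 member at an unadjusted p under 0.05, and higher, beside 1.72% of all genes. Of the genes that passed at 4 h (Mt1 and Atf3) or 12 h (Mt1, Atf3, Csrp3, Lmcd1, Egln3 and Pqlc3), all had the sign of that hour at 8 h. Lmcd1, a LIM protein that acts with calcineurin, had 0.41 ± 0.21, or 0.23 without sham replicate 6, Egln3, an oxygen-sensing prolyl hydroxylase, had 0.38 ± 0.18, and Pqlc3 had -0.11 ± 0.21, or 0.0383 with array weights.

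The core clock was measured through 18 of 19 genes. Against the sham mice of the same arm none passed or was at an unadjusted p under 0.05, 6 were above 0, and the median was -0.03. The 95% interval of all 18 lay between -1 and 1, as did that of 89.3% of all genes. Changes ran from -0.39 ± 0.27 for Per3 to 0.31 ± 0.30 for Ciart, both of them repressor genes of the clock. Arntl, which encodes the activator BMAL1, had 6.56 ± 2.07 (SD, n = 6) against 6.03 ± 1.45 (n = 5), and Dbp, a clock output factor, 25.6 ± 4.57 against 27.8 ± 8.47. Per1 and Per2 had changes of 0.11 ± 0.26 and -0.23 ± 0.28, and Nfil3, a repressor that opposes Dbp, 0.29 ± 0.19. Ciart differed by replicate number among the sham mice, with 0.29 to 0.39 in replicates 1, 2 and 4 and 2.64 and 1.64 in replicates 5 and 6.

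The 2 sets of sham mice at ZT12 had unlike levels of some clock genes and not of others. For Clock, Cry1, Nr1d2, Rora and Tef the ranges of the 2 sets overlapped. Their medians in the active and the rest arm were 31.3 and 30.1, 12.1 and 10.8, 321 and 299, 78.8 and 78.2, and 223 and 206. Dbp ran from 42.9 to 68.4 in the sham mice of the active arm, above the 19.8 to 41.8 in those of the rest arm and the 17.2 to 29.8 in exercised mice. Arntl ran from 1.11 to 4.06 in the sham mice of the active arm, below the 4.11 to 7.97 of the rest arm and the 4.58 to 10.2 of exercised mice. For Per1, Ciart and Per2, as for Dbp, all 6 exercised mice lay below all 6 sham mice of the active arm. For Per1 and Ciart, as for Dbp, every sham mouse of the rest arm lay below them too, while for Per2 the 2 sham sets overlapped. These levels of the active-arm sham mice enter the changes with both sham sets. With both sham sets as controls the changes were -0.70 for Per2, -0.65 for Dbp, -0.54 for Per3, -0.73 for Ciart, 0.71 for Arntl and 0.45 for Nfil3, each at an unadjusted p under 0.05 and none past the adjusted threshold (limma adjusted p 0.484 to 0.757). That of Per1 was -0.39 (unadjusted p 0.0752). The directions of Ciart and Per1 were the reverse of those against the rest-arm sham mice. The difference between the sham sets was not tested.

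Nmrk2 had the largest negative change among the named genes. It encodes nicotinamide riboside kinase 2, a muscle enzyme that makes NAD+ from nicotinamide riboside. The exercised mice had 88.9, 171.7, 118.96, 95.1, 246.9 and 169.8, and the sham mice 830.6, 262.3, 316.0, 445.9 and 428.5. All exercised mice lay below all sham mice, and sham replicate 1 was the highest. The change was -1.59 ± 0.52 (SE, unadjusted p 0.00291, limma adjusted p 1.00). The sham mice of the other arm at ZT12 had 71.9 to 324.5 with a mean of 164 ± 96.4 (SD, n = 6), so the exercised mice lay within their range, and with both sham sets the change was -0.74. The change of Nmrk2 was -0.20 ± 0.50 at 4 h and -0.01 ± 0.50 at 12 h.

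The other genes with the largest negative changes were at low levels, and none passed. Spred2, an inhibitor of the Ras and MAP kinase cascade, had 4.34 ± 0.88 (SD, n = 6) against 7.15 ± 2.21 (n = 5) and a change of -0.63 ± 0.27. Kcp, a secreted modulator of BMP signals, had a change of -0.80 ± 0.29, and Col24a1, a collagen chain, -0.56 ± 0.23. Exoc3l4, Nwd1, BC002059, Erg28, Oscp1, Zfp677, Dlg5 and Nfxl1 ran from -0.92 for Exoc3l4 to -0.53 for Nfxl1. With the sham mice of both arms as controls Exoc3l4 had -0.40, Nwd1 -0.35, BC002059 -0.42, Oscp1 -0.39, Dlg5 -0.34 and Zfp677 -0.0566. Among the higher ones outside the lists, Hbegf, a growth factor that binds the EGF receptor, had 8.38 to 15.5 in exercised and 6.16 to 7.57 in sham mice with no overlap, and a change of 0.72 ± 0.21. Cited2, a transcriptional regulator that binds CBP and p300, had 0.76 ± 0.29, or 0.51 without exercised replicate 1 and 0.42 with both sham sets. Fscn2, an actin-bundling protein, and Rbm14, an RNA-binding coactivator, had 0.72 ± 0.30 and 0.71 ± 0.34 at means under 4, and Rbm14 had 0.16 with both sham sets and 0.41 without sham replicate 4.

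Every exercised mouse lay above every sham mouse of the arm for 36 genes (0.314%). For 4 of these, out of 11461 tested, every exercised mouse also lay above all 6 sham mice of the other arm at ZT12. The 4 were Mt1, Tpst2, Rdh13 and Tcp11l2. The last 3 were named after their values were seen, by this separation in the same data, which is no test of them. Tpst2, a tyrosylprotein sulfotransferase, had 13.5 ± 0.63 (SD, n = 6) against 9.46 ± 0.74 (n = 5) and a change of 0.49 ± 0.16. Rdh13, a mitochondrial retinol dehydrogenase, had 0.33 ± 0.13, and Tcp11l2 0.47 ± 0.20, and none of these 3 passed. Of the 11 genes with every exercised mouse below, none lay below all sham mice of the other arm.

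The remaining lists had no member that passed, and none with an unadjusted p under 0.05 in the lower direction. Over all genes 51.8% were above 0 and 1.72% were higher at that unadjusted p. In 0.314% every exercised mouse lay above every sham mouse. FoxO signalling and muscle protein breakdown had 17 of 23 above 0 and a median of 0.17, and autophagy 16 of 23 and 0.07, with Gabarapl1, an Atg8 family protein on both lists, at 0.33 ± 0.15. Growth arrest and p53 targets had 11 of 13 above 0 and a median of 0.19. Insulin, glucose and glycogen handling had 17 of 24 above 0 and a median of 0.06, with no overlap between groups for Slc2a1, the glucose transporter GLUT1, at 0.49 ± 0.27, or 0.0828 with the sham mice of both arms. Cytosolic heat shock proteins had 14 of 24 above 0 (Hsf2, a heat shock factor, 0.20 ± 0.10, or 0.0736 with both sham sets), the endoplasmic reticulum and integrated stress response 17 of 24 (Impact, which restrains GCN2), and hypoxia and angiogenesis 11 of 16 (Egln3). Sterol and fatty acid synthesis had 8 of 22 above 0 (Mvd, a mevalonate pathway enzyme, 0.44 ± 0.21). In that list Idi1, an isomerase of the same pathway named after its value was seen, was lower in all 6 exercised than in all 5 sham mice, with 2.84 ± 0.70 (SD, n = 6) against 3.84 ± 0.23 (n = 5) and a change of -0.41 ± 0.26, or -0.27 with both sham sets, beside 0.096% of all genes with that order. Proteasome subunits had 10 of 25 above 0 (Psmc2, 0.27 ± 0.11), and collagens and matrix 10 of 24 (Lox, which crosslinks collagen, 0.65 ± 0.27). Calcineurin and NFAT signalling had 10 of 14, myokines and growth regulators 8 of 13, fast fibre genes 5 of 12 and slow fibre genes 4 of 10 above 0, with none at an unadjusted p under 0.05. The summed value of the fast fibre list ran from 96999 to 109650 in exercised mice and from 112789 to 126372 in sham mice. These sums did not overlap, and abundant members weigh most in them, while the median change of the list was -0.04. The summed skeletal muscle fibre markers, which share members with this list, did overlap between the groups. How often sums of other genes separate was not tested. The most abundant member of the fast fibre list, Mylpf, a myosin light chain of fast fibres, had 16008 to 36766 in exercised and 34400 to 42395 in sham mice, which overlapped. The change of Mylpf was -0.53 ± 0.50, or -0.18 with both sham sets.

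The exercise effect was compared between hours and phases across all genes, and no gene passed. For active minus rest at 8 h, 456 genes (3.98%) were at an unadjusted p under 0.05, for 8 h minus 4 h in the rest phase 295 (2.57%), and for 12 h minus 8 h 661 (5.77%). The exercise effect itself passed for 2 genes (0.0175%) at 4 h of recovery from rest-phase running, with 2.93% of genes at an unadjusted p under 0.05, and for 6 (0.0524%) at 12 h, with 6.04%. It passed for none after 8 h of recovery from active-phase running, when 2805 genes (24.5%) were at an unadjusted p under 0.05. A gene that passed at 1 hour or phase is therefore not shown to differ from the others. In the active arm at 8 h a slope of deviation on transcript length ran from -0.19 to 0.38 in exercised and from -0.20 to 0.02 in sham libraries. With that slope as a covariate, the count for active minus rest at an unadjusted limma p under 0.05 was 265 in place of 456. The exercise effect of the active arm alone was not fitted with the slope. The part of the slope in the count of 2805 genes was not tested.

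Total reads ran from 8.49 M (mega) to 17.3 M in exercised and 8.47 M to 11.5 M in sham libraries (exact permutation p = 0.162, two-sided, 462 splits). The share of values in mitochondrial transcripts was 13.98% ± 3.43 and 15.8% ± 2.18 (SD, exact p = 0.314), and a slope of deviation on transcript length -0.03 ± 0.12 and -0.04 ± 0.07 (exact p = 0.885). Each library was also correlated with the others of its group. For exercised libraries the median of these correlations averaged 0.963 (SD 0.0102), and for sham libraries 0.973 (SD 0.00221). The lowest, 0.943, belonged to exercised replicate 1. Libraries of the same group share their correlations, so the values are not independent and no p is given for them. All 12 skeletal muscle fibre markers were measured, 10 of them below 0 with a median of -0.13, and their summed value was 136403 to 152847 in exercised and 151043 to 170015 in sham mice. Summed markers overlapped between the groups for macrophages (296.8 to 430.9 and 255.4 to 503.2, 14 of 16 measured), endothelium (340.4 to 511.3 and 330.4 to 563.6, 14 of 14), fibroblasts (1042 to 2092 and 997.4 to 1841, 10 of 10) and adipocytes (800.5 to 1303 and 917.8 to 1353, 8 of 10). They also overlapped for erythroid cells (373.4 to 1107 and 701.6 to 1095, medians 612.7 and 833.8, 5 of 7), nerve (36.6 to 97.3 and 35.6 to 76.9, 6 of 10), pericytes and smooth muscle (1832 to 2212 and 1598 to 2003, 8 of 9) and myogenic cells (125.8 to 157.8 and 123.2 to 151.2, 8 of 10). None of the 13 neutrophil and lymphocyte markers was among the genes analysed. The part of depth, cell makeup or library correlation in the results above was not tested.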

How the data were processed

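Stranded libraries of gastrocnemius RNA without ribosomal RNA were read as pairs of 100 bases, per the labels' protocols. The build mm10 (GRCm38) and the tools STAR 2.5.3a, featureCounts 1.5.2, edgeR 3.2.23, cutadapt 1.16, Trim Galore 0.4.3 and FastQC 0.11.5 are named, per the submitters' processing notes. The sources used here give neither the annotation release, nor a strand setting, nor how the 11461 genes were chosen. The deposited signal per gene is in reads per M (mega) of a library size scaled by the authors. All values were whole numbers of reads within 0.01 read, which recovered the reads (2.19 M to 27.6 M per library), and library values summed to 0.633 M to 1.90 M. Of the IDs, 11449 matched the GENCODE annotation. Without strand information, overlapping genes cannot be told apart.

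Log2(value + 0.5) was fitted with limma 3.58.1 in R 4.3.3, with trend and robust moderation, in 1 model of the 24 groups of phase, treatment and hour. An adjusted p under 0.05 (Benjamini-Hochberg over all genes) passed. A log2 change on this scale understates the change of low genes. Nothing in the labels says more of the replicates than their number, so p-values measure the spread between these samples. As alternatives, DESeq2 1.42.0 and edgeR 4.0.16 took the recovered reads, and edgeR called 1 gene. The fit was also run on simulated counts with the same dispersion for every gene. That setting is simpler than these data, so no result here rests on it. Named genes were those that passed, the 12 largest changes each way at an unadjusted p under 0.05 with a mean log2 value not under 1, predicted and mitochondrial genes aside, the 2 smallest p of each list, members of the zinc, clock and load lists, and genes that passed at other hours. Comparisons, lists and members were chosen with earlier results of these data known.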

Additional observations from a re-analysis of the deposited data

Results flagged for a closer look

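In the 2 groups of each of the 70 named genes, 7 values lay apart from the rest of their group by a gap test that chance passes in about 1 of 20 groups, so this number is near what chance gives. Exercised replicate 1 held 3 of them, with Cited2 at 29.8 (nearest other mouse 11.0), Xirp1 at 130.6 (36.5) and Dbp at 17.2 (24.9). Exercised replicate 5 held 2, Nwd1 at 7.65 (4.20) and Col24a1 at 1.46 (2.004). Hsf2 was at 27.3 (24.2) in exercised replicate 6 and at 27.6 (20.2) in sham replicate 2.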

How the results depend on the processing

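The count of genes that passed was 1 and became 3 in the fit of the 11 libraries alone (Mt1, Odf3l2 and Fkbp5), 4 with array weights (Mt1, Odf3l2, Car14 and Mrm1) and 2 with DESeq2 (Mt1 and Odf3l2). Leaving out 1 library at a time gave 0 to 1. Genes at an unadjusted p under 0.05 went from 244 to 532, 1348 and 311 in these settings, to 622 with the length slope as a covariate, 645 with slope and replicate strata and 696 with both sham sets, and were 225 with edgeR. Libraries of 8.47 M to 17.3 M reads limit what can be seen for genes at low values. The 3 differences between hours and phases gave 0 genes in each setting run for them. Mt1 passed in all 14 settings other than leaving out a library (change 1.61 to 1.92, adjusted p 2.89e-06 to 0.0182). Among 1729 pairs of gene and setting for 70 genes, 1709 kept direction and side of the threshold, 2 lost the call, 6 gained it and 12 changed sign, over 7 genes, none of which had passed. The sign changes were Pqlc3 with array weights (0.0383), Per1 with array weights (-0.0849) and both sham sets (-0.39), and, with both sham sets, Ciart (-0.73), Btg2 (-0.0327) and Slc30a1 (-0.20), and on leaving out 1 library Pqlc3 (-0.26 to 0.0015), Per1 (-0.004 to 0.24), Arntl (-0.032 to 0.20) and Dbp (-0.20 to 0.0625). The cause was not tested. The change moved by over 1.5 times with both sham sets for 31 of the 70 genes and on leaving out 1 library for 18. With the replicate number as a block, 1 gene passed (Mt1, 1.77). Same-numbered mice correlated at 0.0212 to 0.385 over 5 pairs, not all above 0.1, so the numbers were not taken to pair mice, and 5 of 10 mice correlated best with their own number. Leaving out the 6 libraries of correlation under 0.9, chosen after seeing the data, gave 1 gene, no gene for 8 h minus 4 h, and 1 in place of 2 at 4 h.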
